A study of Mus musculus with 8 samples.

Results

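In the liver of Alb-D2KO mice, 1519 regions that lay in introns close to a transcription start site (TSS) and were open in control liver had no overlapping open region. They made up 18.9% (95% Wilson interval 18.1 to 19.8) of the 8031 open regions found in control liver alone, which are called RCAs for reduced chromatin accessibility. RCAs were 35.9% of the 22368 open regions of control liver, counted from the running number that the call gave each region. The 1519 near-start intronic RCAs were chosen by position alone. Each overlapped a gene body, touched no exon and no window of 200 bp either side of a TSS, and lay at most 5000 bp from the nearest TSS of any gene, measured from edge to edge on the mm10 (GRCm38) build with the GENCODE M21 annotation. No signal, width or sequence entered the choice.

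The data were ATAC-seq of liver nuclei from adult mice labelled C57BL/6 (C57BL/6J in the study's methods), a method in which a transposase inserts sequencing adapters wherever chromatin is open. The Alb-D2KO mice carried a floxed Dio2, the gene of the type 2 deiodinase (D2), together with Cre recombinase driven by the albumin promoter. Cre then acts in hepatocytes, and the other cells of the liver keep Dio2. The controls are given the genotype "control" and are titled "cre". Each genotype had 4 libraries, each of 50000 nuclei from frozen liver, and sex and exact age were not given in the sources used here. The libraries of a genotype were pooled in 1 call of open regions, so every region has a single value, no region has a replicate error, and no test between the genotypes was possible. Intervals below cover counting error over regions or genes only, and the depth of the libraries is unknown from the lists.

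D2 converts the prohormone T4 into the active hormone T3, and T3 acts through nuclear receptors that bind DNA at repeats of the letters AGGTCA, usually together with an RXR partner. Introns close to a TSS, first introns above all, often hold enhancers and the promoters of alternative transcripts. Chromatin that is open there is typically bound by the transcription factors of the cell, which in hepatocytes include the HNF4A, FOXA, C/EBP, HNF1 and NFI families.

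Only the number of the open regions that both genotypes shared is known here, not their positions, so a share of near-start intronic regions that was lost cannot be given. The same rule applied to the reverse list, of regions found in Alb-D2KO liver alone, gave 39 of 250 regions (15.6%, 11.6 to 20.6). The ratio of near-start intronic regions in the control-only list to those in the Alb-D2KO-only list was 38.9, beside 32.1 for the whole lists. Dio2 itself held no RCA, and the nearest RCA lay 930102 bp away.

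The sequences at the summits of the strongest near-start intronic RCAs show what such regions look like. Strength was taken as the area under the curve (AUC) of the −log10 p signal that the peak caller gave each region. Below are 120 bases around the summit of 7 of those with the highest AUC, read from the GRCm38 genome of RefSeq and named by their host gene, with CpG pairs in capitals.
E330011O21Rik (chr16:78265161-78265280, + strand): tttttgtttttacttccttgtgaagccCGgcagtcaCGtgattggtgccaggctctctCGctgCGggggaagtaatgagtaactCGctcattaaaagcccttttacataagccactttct
Hnf4aos (chr2:163540797-163540916, + strand): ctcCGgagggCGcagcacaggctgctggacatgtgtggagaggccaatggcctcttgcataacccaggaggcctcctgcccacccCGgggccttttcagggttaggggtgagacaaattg
2310001H17Rik (chr6:129230118-129230237, + strand): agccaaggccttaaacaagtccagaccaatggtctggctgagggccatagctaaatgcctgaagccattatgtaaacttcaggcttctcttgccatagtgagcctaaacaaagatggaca
Gm20388 (chr8:121580474-121580593, + strand): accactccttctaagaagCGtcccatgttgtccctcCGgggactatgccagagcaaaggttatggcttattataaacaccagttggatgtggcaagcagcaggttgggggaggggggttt
Mcm10 (chr2:4996648-4996767, + strand): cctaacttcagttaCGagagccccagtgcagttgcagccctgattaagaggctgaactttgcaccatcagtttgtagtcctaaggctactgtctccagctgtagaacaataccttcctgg
Slc2a2 (chr3:28725432-28725551, + strand): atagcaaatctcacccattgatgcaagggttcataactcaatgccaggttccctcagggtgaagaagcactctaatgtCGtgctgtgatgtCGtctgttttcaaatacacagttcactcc
Prox1os (chr1:190174420-190174539, + strand): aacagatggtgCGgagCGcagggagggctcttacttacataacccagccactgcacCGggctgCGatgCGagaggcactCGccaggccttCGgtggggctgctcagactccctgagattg
The 7 windows held between 0 and 7 CpG pairs. The window of 2310001H17Rik had none in a sequence of 46.7% GC, and that of Prox1os had 7 in a sequence of 62.5% GC. Only the letters within these 120 bases are counted here.

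The strongest was in the first intron of the long noncoding RNA gene E330011O21Rik (chr16:78264724-78265553), with an AUC of 769 over 830 bp, 399 bp downstream of its TSS. Next came a region of AUC 737 and 708 bp on chromosome 2 (chr2:163540634-163541341), in an intron shared by Hnf4aos and Hnf4a. Hnf4a encodes a nuclear receptor that maintains hepatocyte identity, and Hnf4aos is its antisense transcript. That region lay 351 bp downstream of the Hnf4aos TSS, and an RCA at this TSS began 256 bp away. The noncoding gene 2310001H17Rik (chr6:129229793-129230555, AUC 720) followed at 3419 bp downstream of its TSS, and then Gm20388 (chr8:121580067-121580965, AUC 720), where the nearest TSS was that of the pseudogene Gm17786, 800 bp away.

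In Mcm10, which encodes a replication factor, the RCA (chr2:4996363-4997075) had an AUC of 704 and lay in intron 6, 469 bp upstream of a Mcm10 TSS that was itself in an RCA. At Slc2a2, which encodes the hepatocyte glucose transporter GLUT2, the AUC was 682 (chr3:28725078-28725557) at 3561 bp downstream of an Slc2a2 TSS. The intron of Prox1os held a region of AUC 680 (chr1:190174421-190175607), 1187 bp wide and 3707 bp upstream of the TSS of Prox1, a homeobox factor of hepatocyte development. Of the 10 regions of highest AUC, the last were at Wdr81 (chr11:75443698-75444166, AUC 667), 4107 bp upstream of the TSS of Serpinf2, and Crcp (chr5:130031393-130032198, AUC 659), 2050 bp downstream of its TSS. Serpinf2 encodes the plasmin inhibitor of plasma, and an RCA was at its TSS as well. Of the 10, 3 had another RCA at their nearest TSS.

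Most near-start intronic RCAs lay downstream of the nearest TSS, most in a first intron, and most nearest to a TSS of their host gene. Each trait was counted alone, and the share with all of them was not computed. Downstream, in the direction of transcription, were 962 of 1519 (63.3%, 60.9 to 65.7). Intron sequence at these distances was itself more often downstream, with 177 Mb against 123 Mb upstream. In the first intron of at least 1 transcript of the host gene lay 1110 (73.1%, 70.8 to 75.2), and a further 199 (13.1%) were in a second intron. The nearest TSS belonged to the host gene itself for 1268 (83.5%, 81.5 to 85.3), and the host was protein-coding for 1324 (87.2%) and a long noncoding or unclassified gene for 185 (12.2%). For intron sequence as a whole, the shares in a first intron and with a host TSS nearest were not computed, so no excess can be read from these values. Many of the nearest TSSs were internal ones. The 5′ end of the host gene lay within 5000 bp for only 697 (45.9%, 43.4 to 48.4), and its median distance was 7101 bp, against a median of 1659 bp to the nearest TSS.

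Intronic RCAs 5 to 50 kb from a TSS, of which there were 1587, served for comparison. They were in a first intron for 49.2% and their nearest TSS belonged to the host for 66.7%. Downstream were 984 (62%), a share close to that of the near-start intronic RCAs. Distance to the TSS set the classes apart, and the first-intron and host-TSS shares can depend on distance alone. Neither share was computed for intron sequence at these distances, so no excess of RCAs can be read from the contrast. The sides of the TSS differed among the near-start regions. Downstream of the TSS 83.8% were in a first intron and 92.4% had a TSS of the host nearest, and upstream 54.6% and 68.0%. The first introns concerned were long, with a median of 9430 bp, beside 8062 bp for all introns that held a near-start intronic RCA.

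Counts fell with distance. Between 200 and 1000 bp from the TSS lay 503 (33.1%), between 1000 and 2000 bp 364 (24.0%), between 2000 and 3000 bp 276 (18.2%), between 3000 and 4000 bp 196 (12.9%), and between 4000 and 5000 bp 180 (11.8%). Intron sequence becomes scarcer with distance too, so the counts were divided by the length of intron at each distance. From 200 to 500 bp downstream of a TSS there were 12.1 regions per Mb of intron (exact Poisson interval 10.3 to 14.2, 153 regions), from 500 to 1000 bp 8.61 (7.44 to 9.91, 195 regions), and from 4500 to 5000 bp 3.67 (2.75 to 4.80). Upstream the same distances gave 5.46 (4.19 to 7.001, 62 regions), 5.46 and 3.44 (2.35 to 4.85). Within the first 1000 bp the intervals of the 2 sides did not overlap, in every later bin of 500 bp they did, and from 1500 bp on the densities of both sides lay between 2.92 and 4.98. Over all distances up to 5000 bp the density was 5.45 per Mb (5.11 to 5.80) downstream and 4.52 (4.15 to 4.91) upstream. Regions were placed by their nearer edge, and a region that touched an exon was not counted.

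**Figure D1:**
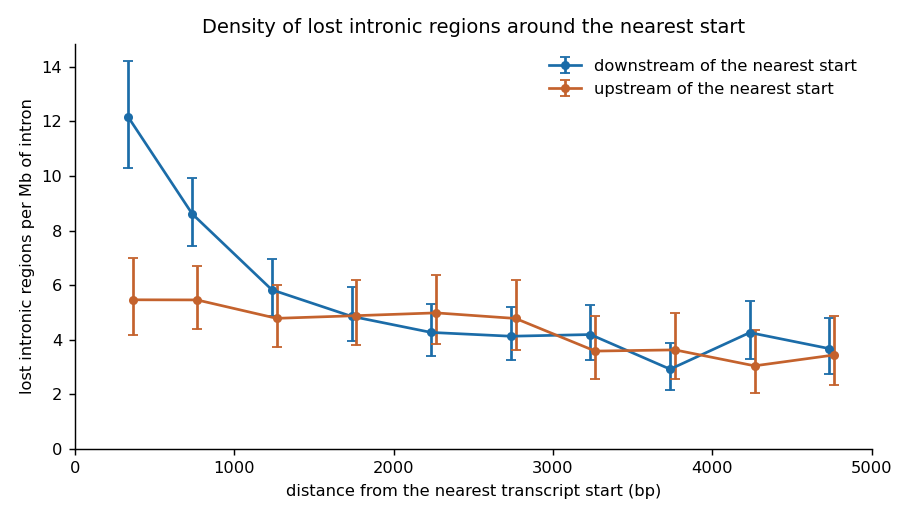
Near-start intronic RCAs per Mb of intron (vertical axis) by distance from the nearest TSS in bp (horizontal axis), downstream (blue) and upstream (orange) of it, with exact Poisson 95% intervals as bars. The downstream bin from 200 to 500 bp stands at 12.1 per Mb, and all bins beyond 1000 bp on either side lie below 6.

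Set beside the other classes of RCA, near-start intronic sequence was intermediate in density. RCAs at TSSs numbered 42.1 per Mb of TSS window (40.03 to 44.2), exonic RCAs 7.54 per Mb of exon, near-start intronic RCAs 5.07 per Mb of intron within 5000 bp of a TSS (4.82 to 5.33), intergenic RCAs within 5000 bp of a TSS 4.10 (3.82 to 4.39), and intronic RCAs at 5 to 50 kb 2.60 (2.48 to 2.73). A region that touched a TSS window or an exon was counted there and not as intronic, so the classes are not counted alike. When the summit base decided the class, 1863 regions were near-start intronic, instead of 1519. On the autosomes the density of near-start intronic RCAs ran from 3.62 per Mb on chromosome 14 to 7.79 (6.21 to 9.66) on chromosome 15. Chromosome X held a single one, at 0.102 per Mb (0.00257 to 0.566), of the 40 RCAs on that chromosome (2.50%, 0.443 to 12.9). It was in the first intron of Msl3 (chrX:168673421-168673649, AUC 278, 69% GC), 249 bp downstream of the TSS, and is named here after its values were seen. Msl3 encodes a chromatin protein of the MSL complex.

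The regions had neither a high AUC nor a great width for RCAs. Their median AUC was 271 (exact binomial interval 266 to 277, n = 1519), with quartiles of 229 and 348 and a highest value of 769. The peak caller kept no region with an AUC under 200, so the lower quartile lies close to the floor of the call. RCAs at TSSs had a median AUC of 304 (297 to 311, n = 1560), intronic RCAs at 5 to 50 kb 271, and all RCAs 278. Near-start intronic RCAs were 314 bp wide at the median (303 to 324), beside 391.5 bp for RCAs at TSSs, 310 bp at 5 to 50 kb and 292 bp for intergenic RCAs within 5000 bp of a TSS. The widths ran from 139 to 1232 bp, with 199 regions under 200 bp and 6 over 1000 bp. The summit −log10 q had a median of 3.12 and ran from 2.28 to 4.31, and 958 of the regions had a summit q under 0.001. In AUC and width they were thus close to the intronic RCAs farther out and below those at TSSs. AUC is an area and grows with width. Divided by width, the median AUC per bp was 0.919 (0.900 to 0.940), beside 0.924 at 5 to 50 kb and 0.812 (0.793 to 0.827) at TSSs. Per bp the RCAs at TSSs were thus the lower ones.

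**Figure D2:**
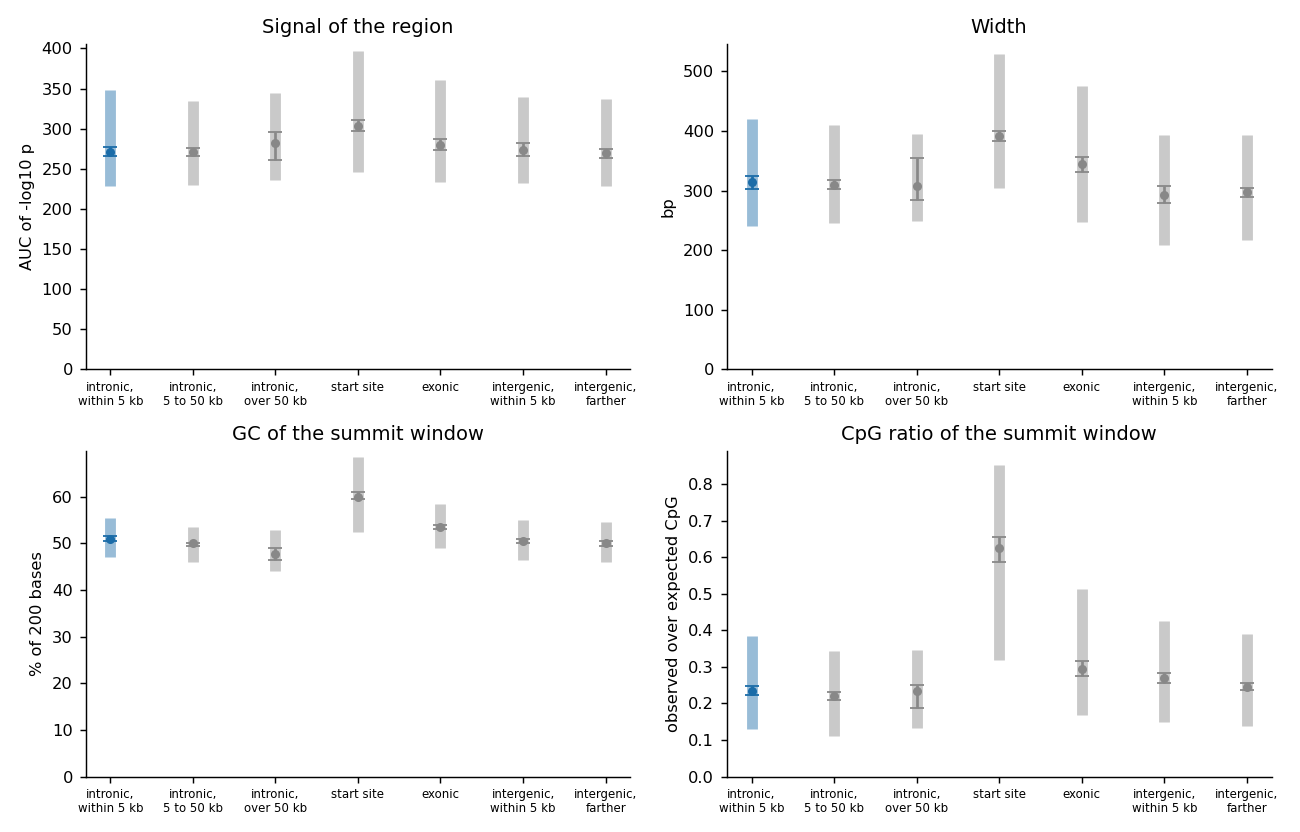
AUC, width, GC content and CpG ratio of RCAs by class, as medians (points) with exact binomial 95% intervals (thin bars) and quartiles (thick bars), and near-start intronic RCAs in blue. Near-start intronic RCAs (median AUC 271, median GC 51%) sit beside the intronic RCAs at 5 to 50 kb, and RCAs at TSSs stand higher in all 4 measures.

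Base composition was read in the 200 bp around each summit. GC content had a median of 51% (50.5 to 51.5) and ran from 32 to 80.5%, against 60% at TSSs and 50% in introns at 5 to 50 kb. CpG pairs are depleted in most of the mouse genome and kept in CpG islands, and the CpG ratio gives their number over the number expected from the C and G present. Its median was 0.235 (0.222 to 0.248) in near-start intronic RCAs, 0.221 at 5 to 50 kb and 0.625 (0.588 to 0.656) at TSSs. A ratio of at least 0.6, the usual level of a CpG island, was reached by 148 near-start intronic RCAs (9.74%, 8.35 to 11.3), beside 55 at 5 to 50 kb (3.47%) and 803 at TSSs (51.5%).

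That CpG-rich minority lay close to the TSS. Of the regions between 200 and 1000 bp, 108 (21.5%, 18.1 to 25.3) had a CpG ratio of at least 0.6, and of those from 1000 bp on no bin of 1000 bp had more than 5.22%. Downstream of the TSS the share was 12.1%, upstream 5.75%, in first introns 12.1% and in later introns 3.42%. Median width went with distance as well, from 342 bp within 1000 bp to 298.5 bp between 4000 and 5000 bp, and median GC from 53 to 49.5%. Repeats were rare at the summits. No base of the window was masked in 747 regions (49.2%), and 42 (2.76%) had at least 50% of it masked.

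The letters recognised by 23 factors or families were searched on both strands in the same windows of 200 bp. A match is a description of the sequence and no proof of a bound site, and each share is given beside that of all RCAs. Letters that are common at promoters were rarer in near-start intronic RCAs than at TSSs. The GC box GGGCGG, bound by SP1, was present in 158 (10.4%, 8.96 to 12.04), beside 14.4% of all RCAs, 39.7% at TSSs and 5.48% at 5 to 50 kb. The difference was −29.3 percentage points from TSSs (Newcombe interval −32.2 to −26.4) and 4.92 points from the introns at 5 to 50 kb (3.03 to 6.85). The ETS letters CCGGAAG were in 22 (1.45%), beside 2.39% of all RCAs, 7.05% at TSSs, with a difference of −5.60 points (−7.07 to −4.22), and 1.26% at 5 to 50 kb. The CTCF core AGNNGGCGC, part of the sequence bound by the insulator protein CTCF, was in 98 (6.45%), beside 7.56% of all RCAs, 10.6% at TSSs, with a difference of −4.19 points (−6.17 to −2.22), and 3.34% at 5 to 50 kb, 3.11 points below the near-start share (1.60 to 4.67). The strongest near-start intronic RCA with each of the 3 is shown as 60 bases with the letters in capitals, written on the + strand, where a match to the other strand reads as the reverse complement.
Nfic, GC box (chr10:81424961-81425020, + strand): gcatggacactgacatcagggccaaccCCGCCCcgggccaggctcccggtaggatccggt
Csrnp1, ETS (chr9:119981576-119981635, + strand): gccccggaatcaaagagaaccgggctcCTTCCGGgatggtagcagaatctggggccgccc
Mical3, CTCF core (chr6:121130219-121130278, + strand): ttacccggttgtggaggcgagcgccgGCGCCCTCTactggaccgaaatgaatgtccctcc
Nfic, whose intron holds the first, encodes a nuclear factor of the NFI family. The GC box share fell with distance, from 16.7% between 200 and 1000 bp to 5.56% between 4000 and 5000 bp, as did the share of CpG-rich windows. Where the CpG ratio was at least 0.6 the share with a GC box was 37.2%, and elsewhere 7.51%, and the GC box letters themselves contain a CpG pair.

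Letters of C/EBP, HNF4A and HNF1, factors of the hepatocyte, were more frequent in near-start intronic RCAs than at TSSs. The C/EBP letters TTGCNNAA were in 235 (15.5%), beside 14.3% of all RCAs, 9.36% at TSSs, with a difference of 6.11 points (3.79 to 8.45), and 16.7% at 5 to 50 kb. For the HNF4A letters CAAAGTCCA the count was 46 (3.03%), beside 2.36% of all RCAs, 1.03% at TSSs, 2.003 points lower (1.02 to 3.07), and 2.90% at 5 to 50 kb. HNF1 letters, GTTAATNAT, were in 29 (1.91%), beside 1.36% of all RCAs and 0.705% at TSSs, a difference of 1.204 points (0.405 to 2.08). Base composition differed as well. Near-start windows with the C/EBP, HNF4A and HNF1 letters had a median GC of 48.5, 49.25 and 44.5%, while all windows at TSSs had 60%. The part of base composition in these differences from TSSs was not tested. The FOXA letters TGTTTAC were in 72 (4.74%), beside 4.99% of all RCAs, 3.53% at TSSs and 6.87% at 5 to 50 kb, a difference of −2.13 points from the last (−3.79 to −0.480). AP-1 letters, TGANTCA, differed in the same direction, with 96 (6.32%) beside 6.93% of all RCAs and 9.39% at 5 to 50 kb, a difference of −3.07 points (−4.97 to −1.18). The regions of highest AUC with these letters are given next, again with the match in capitals.
Hnf4aos, C/EBP (chr2:163540825-163540884, + strand): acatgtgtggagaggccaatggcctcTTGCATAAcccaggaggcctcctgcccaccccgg
Wdr81, FOXA (chr11:75443911-75443970, + strand): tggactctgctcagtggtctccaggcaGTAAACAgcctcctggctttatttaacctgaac
Cd82, HNF4A (chr2:93458736-93458795, + strand): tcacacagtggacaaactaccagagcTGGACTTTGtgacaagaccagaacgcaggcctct
Pi4ka, HNF1 (chr16:17345653-17345712, + strand): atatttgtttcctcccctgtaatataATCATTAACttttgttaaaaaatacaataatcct
Crcp, AP-1 (chr5:130031700-130031759, + strand): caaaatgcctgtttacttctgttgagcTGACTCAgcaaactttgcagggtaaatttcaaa
In the Hnf4aos window the C/EBP letters lay inside the 120 bases around the summit printed above. Among the others searched, the STAT letters TTCNNNGAA were in 100 near-start intronic RCAs (6.58%, all RCAs 6.84%), the E-box CACGTG in 79 (5.201%, 5.81%), the GATA letters AGATAAG in 47 (3.09%, 2.57%), the ONECUT letters ATCAATA in 47 (3.09%, 3.38%) and the NFY letters AGCCAAT in 40 (2.63%, 3.63%). TTGGC and GCCAA 5 bases apart with up to 1 mismatch, the palindrome of the NFI family, were in 27 (1.78%, 1.36%). The KLF letters CCACACCC were in 29 (1.91%, all RCAs 1.90%), and the CRE letters TGACGTCA (3 regions, all RCAs 0.449%), YY1 letters AAGATGGCG (3, 0.337%), EGR letters GCGTGGGCG (2, 0.175%) and NRF1 letters GCGCATGCG (2, 0.237%) were rare.

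**Figure D3:**
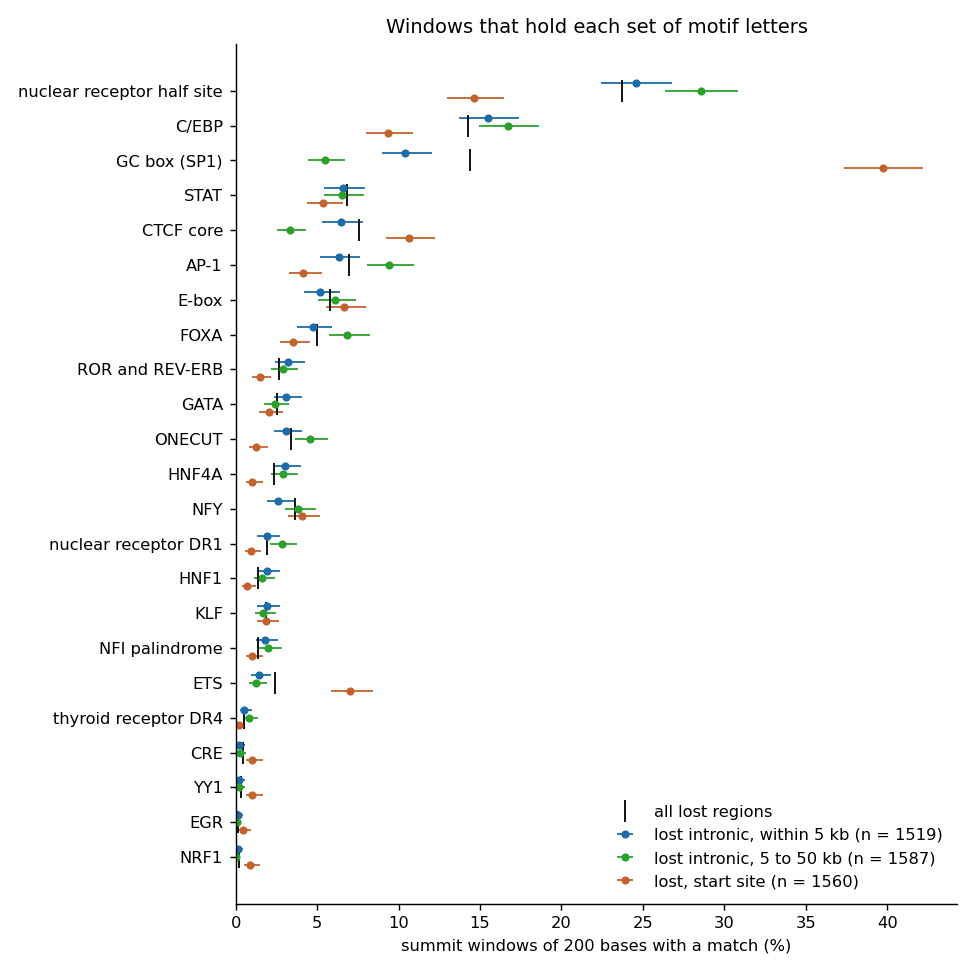
Share of 200 bp summit windows (horizontal axis, %) holding the letters of each motif, for near-start intronic RCAs (blue), intronic RCAs at 5 to 50 kb (green) and RCAs at TSSs (orange), with Wilson 95% intervals as bars and all RCAs as black marks. The GC box stands apart, at 39.7% at TSSs, 10.4% in near-start intronic RCAs and 5.48% at 5 to 50 kb.

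The hexamer AGGTCA, the recognition letters of many nuclear receptors, was in 373 near-start intronic RCAs (24.6%, 22.5 to 26.8), beside 23.7% of all RCAs. At TSSs it was in 14.6%, which is 9.94 points lower (7.15 to 12.7), and at 5 to 50 kb in 28.5%, from which the near-start share differed by −3.99 points (−7.08 to −0.881). Of the 373, 49 held the longer letters TAGGTCA of the ROR and REV-ERB receptors (3.23%, all RCAs 2.69%), which contain the hexamer. Pairs of the hexamer with up to 1 mismatch were rare. A pair 1 base apart, bound by HNF4A and by PPAR with RXR among others, was in 29 (1.91%, all RCAs 1.96%). None of these held the HNF4A letters above. Those letters, aligned with the pair, differ from its second hexamer by more than 1 base, so a single site could not match both. A pair 4 bases apart, the arrangement that thyroid hormone receptors bind with RXR, was in 8 (0.527%, 0.267 to 1.04), beside 0.499% of all RCAs, 0.819% at 5 to 50 kb and 0.192% at TSSs. One of the 8 also held the pair 1 base apart. Examples are printed because these are letters that nuclear receptors, those of thyroid hormone among them, are known to bind.
Rps6ka1, ROR and REV-ERB (chr4:133879353-133879412, + strand): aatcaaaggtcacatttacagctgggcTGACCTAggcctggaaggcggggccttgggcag
Tns1, repeat 1 base apart (chr1:74014675-74014734, + strand): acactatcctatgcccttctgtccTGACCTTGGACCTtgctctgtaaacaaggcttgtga
Afmid, repeat 4 bases apart (chr11:117829900-117829959, + strand): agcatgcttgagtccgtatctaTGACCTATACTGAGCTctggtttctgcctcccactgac
Afmid encodes an enzyme of tryptophan breakdown, and its region had an AUC of 519. Others of the 8 were in 2010111I01Rik (AUC 355), Orm3 (AUC 286), Best1 (AUC 251), Ermard (AUC 233) and Dnajc19 (AUC 208). The share with the pair did not differ from that of all RCAs beyond its interval. Of the 1519 windows, 490 held none of the 23 motifs.

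Near-start intronic RCAs lay closer to other RCAs than intronic RCAs farther out did. The nearest other RCA was at a median of 15365 bp (12882 to 18089), beside 21804 bp for introns at 5 to 50 kb, 17138.5 bp for intergenic RCAs within 5000 bp of a TSS and 20719 bp for all RCAs. Another RCA lay within 5000 bp of 474 (31.2%, 28.9 to 33.6), against 25.4% (24.4 to 26.4) of all RCAs and 21.99% at 5 to 50 kb. In 225 of the 474 (47.5%) that neighbour was again a near-start intronic RCA, in 138 (29.1%) an RCA at a TSS, in 45 an intronic RCA farther out and in 44 an exonic one. Near-start intronic RCAs formed 129 neighbouring pairs within 5000 bp, with a median gap of 1358 bp, and 33 of the pairs were within 500 bp. Such pairs share a locus and are not independent regions.

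Some near-start intronic RCAs had a separate RCA at the nearest TSS, with no share for TSSs in general given here to set beside theirs. A region that touched a TSS window was excluded by the rule, so a single loss spanning TSS and intron could not be counted. How often the loss took in the TSS is therefore not known from these shares. The nearest TSS was in an RCA for 116 near-start intronic RCAs (7.64%, 6.41 to 9.08), and at least 1 TSS of the host gene for 286 (18.8%, 16.9 to 20.9). With a TSS window of 1000 bp the share at the nearest TSS was 14.5% (12.4 to 16.8). Where an RCA was at the nearest TSS, 47.4% of the near-start regions had an AUC of at least 300 (38.6 to 56.4), and elsewhere 37.6% (35.1 to 40.1), with intervals that overlap. Whether the other TSSs were open in both genotypes or closed in both was not analysed here. The control region numbered just before was itself an RCA for 621 (40.9%, 38.4 to 43.4), both neighbours for 265 (17.4%), and neither for 551 (36.3%). For all RCAs the preceding region was an RCA in 41.9% (40.8 to 42.9), both in 19.4% and neither in 35.6%, so in the order of open regions the near-start intronic RCAs stood among other RCAs about as often as RCAs in general.

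The 1519 regions lay in 1370 genes, and 152 (10.01%) lay in more than 1 gene. A single region was held by 1132 genes, 2 by 187, 3 by 38, 4 by 8, 5 by 4 and 12 by 1. The gene with 12 was Gm20388, a gene model of 4434882 bp on chromosome 8 that runs across many other genes, and 8 of its members also lay in another gene. These genes were Car5a (AUC 610), a mitochondrial carbonic anhydrase, Zfpm1 (AUC 542 and 243), a GATA cofactor, Banp (AUC 386), Fanca (AUC 287), Gse1 and Zc3h18. The other 4, with the strongest of the 12 (AUC 720) among them, lay in Gm20388 alone. Fgfr2, with 5, likewise has a model that spans its neighbours, and its 5 regions also lay in Lhpp, Fam53b, Nsmce4a and Tacc2.

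Among genes with several near-start intronic RCAs, Ttc7 held 5 with AUCs of 420, 255, 377, 275 and 225, and Bcar3 5 with AUCs from 210 to 296. Nfic had 4, of AUC 228, 651, 497 and 241, so that 2 of its regions were among the stronger and 2 near the floor. Ergic1, which encodes a protein of the early secretory pathway, had 4 (AUC 226, 266, 488 and 506), and Aldh1l1, an enzyme of folate metabolism, 4 (AUC 482, 231, 330 and 357). At Hnf4a and Hnf4aos, 3 regions lay in a row at 2827, 1655 and 351 bp downstream of the Hnf4aos TSS, with AUCs of 256, 480 and 737.

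**Figure D4:**
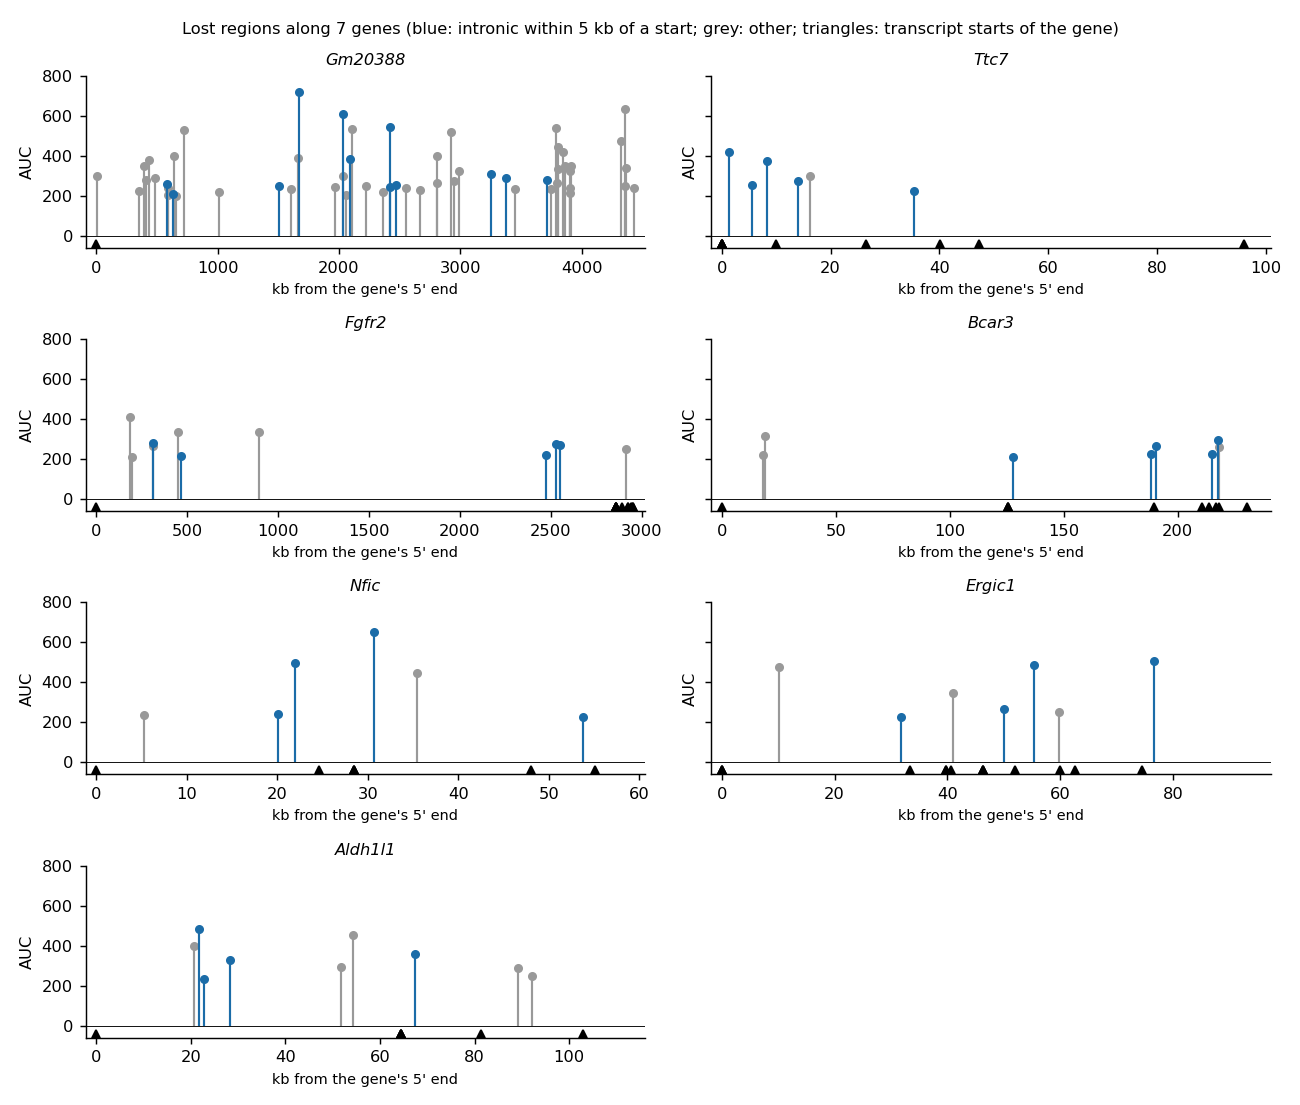
AUC of RCAs (vertical axis) against distance from the 5′ end of the gene in kb (horizontal axis) for 7 of the genes that held the most near-start intronic RCAs, with near-start intronic RCAs in blue, other RCAs in grey and the TSSs of the gene as triangles. Gm20388 spans 4434882 bp with RCAs along its length, and 4 of the 5 regions of Ttc7 lie within 20 kb of its 5′ end.

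Of 21992 protein-coding genes, 1153 (5.24%) held a near-start intronic RCA. Lists of genes by role in the liver were counted beside this share, and in them it ran from 4.44% to 27.5%. The lists were chosen with earlier results of these data known. Any RCA was held by 3504 coding genes (15.9%), and 32.9% of these (31.4 to 34.5) held a near-start intronic one. Long genes hold more intron, and coding genes with a near-start intronic RCA were 42903 bp long at the median, against 17326 bp for all. The part of length in the counts below was not tested. Each list is given by its count over all its annotated genes and by its share among the genes with any RCA. A gene counted when the region lay in its introns, and the nearest TSS could be that of another gene. Among the genes named below this was so at Hnf4a, Nfib, Crtc3, Insr, Ugt1a6b, Cyp2d9 and Dusp1. It was also so for the stronger region of Nfix, of Mlxipl and of Por.

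For liver transcription factors the count was 12 of 47 genes (25.5%, 15.3 to 39.5) with 24 regions, and 41.4% of the 29 genes with any RCA. The strongest were at Hnf4a (AUC 737), Nfic (AUC 651), Rxra (AUC 637), the partner of many nuclear receptors, Nfix (AUC 622) and Ppard (AUC 420), a fatty acid receptor. All 4 NFI genes of the list held at least 1, with Nfia at AUC 210 and 235 and Nfib at 233 and 248. Also among the 12 were Ppara (AUC 269 and 251) and Nr1h4 (AUC 295), which encodes the bile acid receptor FXR.

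Thyroid hormone signalling had 5 of 31 genes (16.1%, 7.09 to 32.6) with 10 regions, and 50% of the 10 genes with any RCA. They included Rxra (AUC 637), Slc16a10 (AUC 550, 839 bp upstream of a TSS), a transporter of T3, T4 and aromatic amino acids, Dio1 and Thra. Dio1 encodes the type 1 deiodinase of liver and is a known T3 target, and held 2 regions at 3855 and 3211 bp downstream of its TSS, of AUC 388 and 285. Thra, a thyroid hormone receptor gene, held 1 of AUC 221 at 1181 bp. Dio2, Dio3 and Thrb were on the list and held none.

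Among plasma proteins, coagulation and complement, 14 of 60 genes (23.3%, 14.4 to 35.4) held a near-start intronic RCA, 36.8% of the 38 with any RCA. Plg, the plasminogen gene (AUC 631, 1686 bp downstream of its TSS), Itih4, an acute phase protein (AUC 614), F10, coagulation factor X (AUC 522, 356 bp), Serpina6, corticosteroid-binding globulin (AUC 376), and Cfi, complement factor I (AUC 363), were the strongest. Amino acid breakdown and the urea cycle had 11 of 40 (27.5%, 16.1 to 42.8), 44.0% of 25. They were led by Haao, of tryptophan breakdown (AUC 490), the amino acid transporters Slc38a4 (AUC 400) and Slc38a3 (AUC 294), Sdsl (AUC 259 and 313) and Hgd, of tyrosine breakdown (AUC 284). The enzymes of the urea cycle proper on the list held none, and the mitochondrial ornithine carrier Slc25a15 held 1 (AUC 272).

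Lipid metabolism had 17 of 72 genes (23.6%, 15.3 to 34.6) with 22 regions, 45.9% of the 37 with any RCA. The strongest were at Gpat4, of glycerolipid synthesis (AUC 574), Cpt1a, the gate of mitochondrial fatty acid uptake (AUC 547), Scarb1, the HDL receptor (AUC 468, 453 and 495), Srebf1, the lipogenic factor SREBP1 (AUC 466), and Mlxipl, the glucose-sensing factor ChREBP (AUC 397 and 273). Both synthesis and oxidation were represented, since Acly (AUC 356), of fatty acid synthesis, and Cpt2 (AUC 266), which imports fatty acids for oxidation, were also among the 17. For glucose, insulin and growth hormone signalling the count was 11 of 53 (20.8%, 12.005 to 33.5), 34.4% of 32. Slc2a2 (AUC 682), Crtc3, a CREB coactivator (AUC 628), Igfbp4 (AUC 403), Grb10 (AUC 321) and the insulin receptor gene Insr (AUC 313) led it.

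Bile acid and xenobiotic metabolism had 8 of 64 genes (12.5%, 6.47 to 22.8), 32.0% of 25. They included Ces1g, a carboxylesterase (AUC 497), Por, the electron donor of the cytochromes P450 (AUC 423 and 352), Akr1d1, of bile acid synthesis (AUC 346), Ugt1a6b (AUC 286) and Cyp2d9 (AUC 258). The circadian clock had 5 of 24 (20.8%, 9.24 to 40.5) with 9 regions, 71.4% (35.9 to 91.8) of only 7 genes with any RCA. Per2 (AUC 536, 2232 bp downstream of its TSS) and Per1 (AUC 356 and 281) encode repressors of the clock, Usp2 (AUC 275, 396 and 292) a deubiquitinase under its control, and Rora (AUC 258) and Nfil3 (AUC 220 and 254) transcription factors that act on clock genes.

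Chromatin and DNA methylation factors had 6 of 51 (11.8%, 5.51 to 23.4), 31.6% of 19. They were the H3K9 methyltransferase gene Ehmt2 (AUC 334), Hdac5 (AUC 315), Arid1a (AUC 273), Trim28 (AUC 251), the DNA methyltransferase gene Dnmt3a (AUC 244 and 205) and Kdm4b (AUC 211). Immediate early and stress genes had 2 of 45 (4.44%, 1.23 to 14.8), Dusp1 (AUC 320) and Nfkb1 (AUC 232), of 13 with any RCA. Among the genes with any RCA, the intervals of these lists overlapped that of all coding genes, except for the clock with its 5 of 7 genes.

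**Figure D5:**
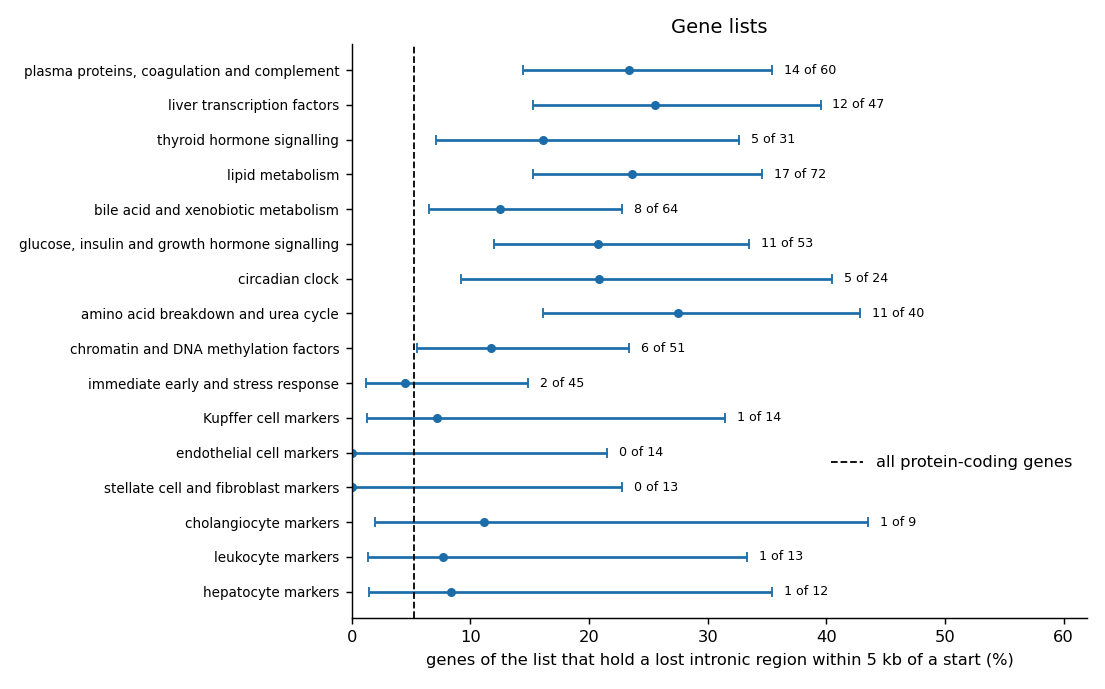
Share of the annotated genes of each list (horizontal axis, %) that held a near-start intronic RCA, with Wilson 95% intervals as bars and the share of all protein-coding genes, 5.24%, as a line. Amino acid breakdown stands highest at 27.5%, and the endothelial and stellate lists at 0%.

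The nuclei came from whole liver, so fewer nuclei of a cell type cannot be told apart from less accessible chromatin per nucleus, and markers of the liver's cell types were counted for that reason. Among all protein-coding genes 15.9% held any RCA and 5.24% a near-start intronic one. Of the hepatocyte markers 7 of 12 genes held any RCA and 1, Hnf4a, a near-start intronic one. Spi1 (AUC 235) was the only Kupffer cell marker of 14 to hold one, Anxa2 (AUC 255) the only cholangiocyte marker of 9, and Cd4 (AUC 361) the only leukocyte marker of 13. Endothelial markers held none of 14 (upper Wilson limit 21.5%), and stellate cell markers none of 13 (22.8%). For every marker list the Wilson interval of the near-start intronic share included the 5.24% of all coding genes, so these counts set no cell type apart. RCAs of any kind were held by 5 of the 14 endothelial markers (35.7%), with an RCA at a TSS in 2 of them, and by 1 marker each of the stellate, Kupffer, cholangiocyte and leukocyte lists. For hepatocyte markers an RCA lay at a TSS in 4 of the 7.

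At the limits of the rule, regions just outside the TSS window were those at Ppp5c (201 bp, AUC 344), Ripor2 (202 bp, AUC 212) and Cd82 (204 bp, AUC 292), which were counted, and just inside the window Ergic1 (199 bp, AUC 346), Vegfa (198 bp, AUC 427) and Nol4l (195 bp, AUC 226), which were not. At the far limit, Dhx32 (5000 bp, AUC 327), Gm6657 (4995 bp, AUC 203) and Gm11476 (4994 bp, AUC 341) were counted, and Mllt1 (1 bp beyond the limit, AUC 228), Tiprl (5012 bp, AUC 400) and Gm30624 (5017 bp, AUC 262) were not.

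The 39 regions of the reverse list that met the rule had a lower AUC and were narrower, each list coming from its own pooled call. Their median AUC was 232 (219 to 249) and their median width 232 bp. Per bp of width they were not weaker, with a median AUC per bp of 1.03 (0.824 to 1.11), beside 0.919 for the near-start intronic RCAs. The median summit −log10 q was 3.05, beside 3.12. The strongest were at Gm26573 (AUC 433), Gm49692 (AUC 393), Sfi1, a centrosome protein gene (AUC 348), 1700063D05Rik (AUC 302) and Rgs8, a regulator of G protein signalling (AUC 276). Downstream of the nearest TSS were 23 (58.97%), close to the 63.3% of the control-only regions. None had an RCA, which is a region of the control-only list, at its nearest TSS. Regions of the reverse list at these TSSs were not counted.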

How the data were processed

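Adult liver nuclei of 4 control and 4 Alb-D2KO mice were profiled by ATAC-seq. The authors trimmed adapters with NGmerge, aligned to mm10 with BWA 0.7.17, dropped chimeric, duplicate, supplementary and MAPQ under 30 alignments, called regions with Genrich 0.6 at q 0.05 on libraries grouped together, left out blacklisted regions, and subtracted regions that overlapped a region of the other genotype. The deposited signal is the AUC of a region, the deposited score is that area per bp with a ceiling, the deposited −log10 q is that of the summit, and the summit offset in bp is the authors' too. The score was used in no comparison, and the column of −log10 p was not used.

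Regions were then classified with GENCODE M21, another release than the one the methods name, in the order TSS, exon, intron and intergenic, using Python 3.11.15, pandas 2.3.3 and pysam 0.24.0. Sequence was read from the GRCm38 genome with samtools 1.23.1, in 200 bp centred on the summit, and 10 RCAs had no sequence read. Intervals came from scipy 1.17.1 at the 95% level. Motif pairs allowed up to 1 mismatch. The classification and counts were tested on simulated data. Densities used chromosomes 1 to 19 and X. No column of per-sample values was left unused (0).

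Named genes were the 10 regions of highest AUC, the 8 genes with most regions, up to 5 genes of each list by AUC, the 3 regions either side of each limit, the 5 strongest in the reverse list and the strongest with each motif discussed. Further list genes and the pairs of AGGTCA 4 bases apart were named in full after their values were seen. Some named regions are not reported here. Members, lists and motifs were chosen with earlier results of these data known.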

Additional observations from a re-analysis of the deposited data

How the results depend on the processing

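The alternatives were a smallest AUC of 300, a summit q under 0.001, a TSS window of 1000 bp, a largest distance of 3000 or 10000 bp, the summit in place of the whole region, and a smallest width of 200 bp. Another used protein-coding genes only, for gene bodies and exons as well as TSSs. The count of 1519 fell to 582 with the AUC limit and to 958 with the q limit. The share of RCAs, 18.9%, became 17.8% with the AUC limit, 12.7% with the wider window, 14.2% at 3000 bp, 26.9% at 10000 bp, 23.2% by the summit and 15.8% with coding genes only. Median AUC (271) became 374, 304, 278 and 283 with the AUC limit, the q limit, the summit and the width limit, and median width (314 bp) 402, 302, 332 and 341.5 bp. The downstream share (63.3%) moved to 60.4% with the wider window. The first-intron share (73.1%) moved to 70.7% with the q limit, 68.0% with the wider window, 75.9% at 3000 bp and 68.0% at 10000 bp, and the share with a TSS of the host nearest (83.5%) to 79.4% at 10000 bp and 96.2% with coding genes only. Another RCA within 5000 bp (31.2%) moved to 20.4% with the AUC limit and 21.5% with the q limit, both of which also thin out the possible neighbours. The share with an RCA at the nearest TSS (7.64%) moved to 5.84% and 5.43% with these, to 14.5% with the wider window and to 5.85% by the summit. The reverse-list count of 39 fell to 4, 24 and 24 with the AUC, q and width limits, and the count of list genes from 93 to 45 with the AUC limit. Median GC (51%) ran from 50.5% to 51.5% over them.

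Motif shares moved beyond their intervals for 20 of the 23 motifs in 100 bp windows, for 15 over the whole region and for 6 with the AUC limit, the first 2 because they search less or more sequence. No paired analysis was possible because each genotype has 1 call over its pooled libraries and no result comes from a test, and for the same reason no library could be left out. The lists hold no read counts, so what depth contributes to a region missing from the Alb-D2KO call was not tested. An AUC floor of 200 and a median of 271 mean that many regions lay near the limit of the call.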

Other observations

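The TSS nearest to a near-start intronic RCA was that of a protein-coding gene for 1186 (78.1%), of a long noncoding or unclassified gene for 242 (15.9%), of a pseudogene for 51 (3.36%) and of another gene type for 40 (2.63%). Among the 39 regions of the reverse list that met the rule, 6 had a pseudogene TSS nearest (15.4%, 7.25 to 29.7). The difference in genotype was not tested, since each list is 1 pooled call.

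Near-start intronic RCAs in a first intron had another RCA within 5000 bp in 32.8% (30.1 to 35.6), and those in later introns in 26.9% (22.8 to 31.4). By motif, median AUC ran lower for the regions with CTCF core letters (249, n = 98) and with ROR and REV-ERB letters (248, n = 49), and higher for those with ETS (307, n = 22), HNF4A (296, n = 46) and FOXA letters (294, n = 72), beside 271 for all near-start intronic RCAs. These are values over regions with no test.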
